A study of Rattus norvegicus with 18 samples.

Results

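The myosin heavy chain genes of rat were followed through 9 lists of m6A peaks from H9c2, a cell line established from the heart of a rat embryo and labelled as cardiomyocyte. The set held 7 genes, taken by the gene name in the lists: Myh3 and Myh4 of skeletal muscle, Myh6 and Myh7 of cardiac muscle, and the non-muscle genes Myh9, Myh9l1 and Myh10. Of these 7 genes, 4 had at least 1 peak, among 4846 genes with a peak in all. Together they held 230 of the 32961 peaks and 51 of the 9022 sites, a site being the merged interval of peaks that shared at least 1 base across lists.

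m6A was mapped by MeRIP-seq, in which an antibody against m6A captures RNA fragments (IP), and their reads are set against those of an uncaptured portion (input). Control cells were left untreated, the Model group received 50 µM phenylephrine (PE) for 24 h, an agonist of α1-adrenergic receptors, and the SYD group received PE at the same dose and time together with SYD, the Shen-Yuan-Dan capsule of Chinese botanical drugs. The dose of SYD was 2 mg/mL in the sample labels and 1 mg/mL in the text of the series. Each group had 3 replicates with an IP and an input library, which gave 18 sequenced samples and 9 deposited lists, all from wild-type cells of the same line. Nothing in the labels said that replicates were separate cultures, so p-values measure the spread between these lists, which may be technical.

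Myosin II is a motor of paired heavy chains, with a head that binds actin and hydrolyses ATP and a long tail that assembles into filaments. The skeletal genes lie side by side in a cluster and are switched on in turn, with Myh3 in embryonic muscle, Myh8 around birth and Myh4 in fast adult fibres. Myh6 and Myh7 encode the alpha and beta heavy chains of heart muscle, and a shift between them accompanies cardiac hypertrophy in rodents. Myh9 and Myh10 encode non-muscle myosins IIA and IIB, which drive contraction of the cell cortex, adhesion and cytokinesis. m6A is a methyl mark on adenosines of mRNA, laid down by a writer complex with METTL3 and read by proteins that alter the stability and translation of the transcript.

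The lists differed in length, with 3629 to 5556 peaks in Control, 2883 to 4476 in Model and 2508 to 2786 under SYD. The median fold enrichment of IP over input was 7.29 to 10.4, 9.71 to 11.2 and 21.4 to 30.9 in the same order, and the median score, 10 times the negative log10 of the peak's p-value, was 50.8 to 62.8, 48.7 to 54.4 and 41.5 to 43.5. Shorter lists, higher folds and lower scores thus came together in SYD, and their part in the results below was not tested. Read depth could not be had from the lists. By the gene name in the lists, 3 of 13 cardiac markers had a peak (Tnnt2 in 9 lists, Nkx2-5 in 8, Gata4 in 1). The counts were 2 of 14 for skeletal muscle (Myh4 and Myh8), 1 of 5 for smooth muscle, 1 of 8 for fibroblasts and 0 of 4 for endothelium. A missing peak does not show that a gene was silent, so the label of cardiomyocyte could not be tested from these lists.

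No library listed a peak under the name Myh6 or Myh7, the defining heavy chains of heart muscle, nor under the embryonic Myh3. The peaks of this gene family came instead from Myh10 with 77, Myh4 with 67, Myh9 with 46 and Myh9l1 with 40, each with a peak in all 9 lists. Counted by the gene name, these carried unusually many sites. Myh4 and Myh10 had 16 sites each, a number reached by 7 of 4846 genes (0.144% of genes with a site), while Myh9 had 11 and Myh9l1 had 8. The 16 sites named Myh4 pool 3 transcripts with 4, 8 and 4 sites, and whether all belong to Myh4 was not tested. Of the 51 myosin sites, 12 (23.5%) were held by all 9 lists and 11 (21.6%) by a single list, beside 10.2% and 33.3% of all 9022 sites.

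The number of Myh4 peaks was 10, 8 and 8 in the Control lists, 8, 10 and 10 in the Model lists and 4, 4 and 5 with SYD. With the 3 transcripts pooled, all SYD lists lay below all Control and Model lists, with means of 8.67 ± 1.15, 9.33 ± 1.15 and 4.33 ± 0.577 (SD, n = 3). The exact permutation test of the F statistic over the 3 groups gave p = 0.0357 before adjustment and 1.00 after Benjamini-Hochberg adjustment over the 3094 genes tested, of which 3.33% had an unadjusted p under the threshold of 0.05 and 0 an adjusted p under it. The smallest p that this exact permutation test can give is 0.00357, so no gene could pass adjustment unless many genes reached that value. The difference of SYD from Model was -5.0 peaks, with a two-sided exact permutation p = 0.10, the smallest that 3 lists against 3 can give. Per 1000 peaks of the list, a scale chosen after the lists were seen, Myh4 had 1.80 to 2.20 peaks in Control, 1.79 to 3.47 in Model and 1.49 to 1.79 in SYD, and the test over the 3 groups gave p = 0.0750 (exact permutation). On that scale the SYD and Model ranges overlapped.

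Myh10 had 11, 9 and 8 peaks in Control, 12, 7 and 10 in Model and 7, 7 and 6 in SYD. The groups of Model and SYD overlapped, and the exact permutation test over the 3 groups gave p = 0.175 before adjustment. Per 1000 peaks of the list its means were 2.11 ± 0.320, 2.50 ± 0.159 and 2.52 ± 0.327 (SD, n = 3), so the lower number in SYD was not seen on that scale. With lists of equal length the number of Myh10 peaks stayed lower in SYD. The difference was -1.67 peaks from Model and -1.33 from Control, and the exact permutation test over the 3 groups gave p = 0.368 before adjustment. Myh9 had 6, 3 and 5 peaks in Control, 3, 5 and 5 in Model and 5, 9 and 5 in SYD, and Myh9l1 had 6, 3 and 4, then 3, 5 and 4, then 4, 5 and 6. Neither separated the groups, with p = 0.536 for Myh9 and 0.707 for Myh9l1 by the exact permutation test before adjustment. Per 1000 peaks, Myh9 had 0.827 to 1.18 in Control, 0.670 to 1.73 in Model and 1.79 to 3.34 in SYD, where the exact permutation test gave p = 0.0357 before adjustment and no gene passed after it. The share of all genes with an unadjusted p under 0.05 on that scale is not given here. With lists of equal length the exact permutation test gave p = 0.536 for Myh9 before adjustment. The mean number of Myh9 peaks in SYD rested on replicate 2: the difference from Model was 2.00 peaks with it and 0.667 without it.

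**Figure D1:**
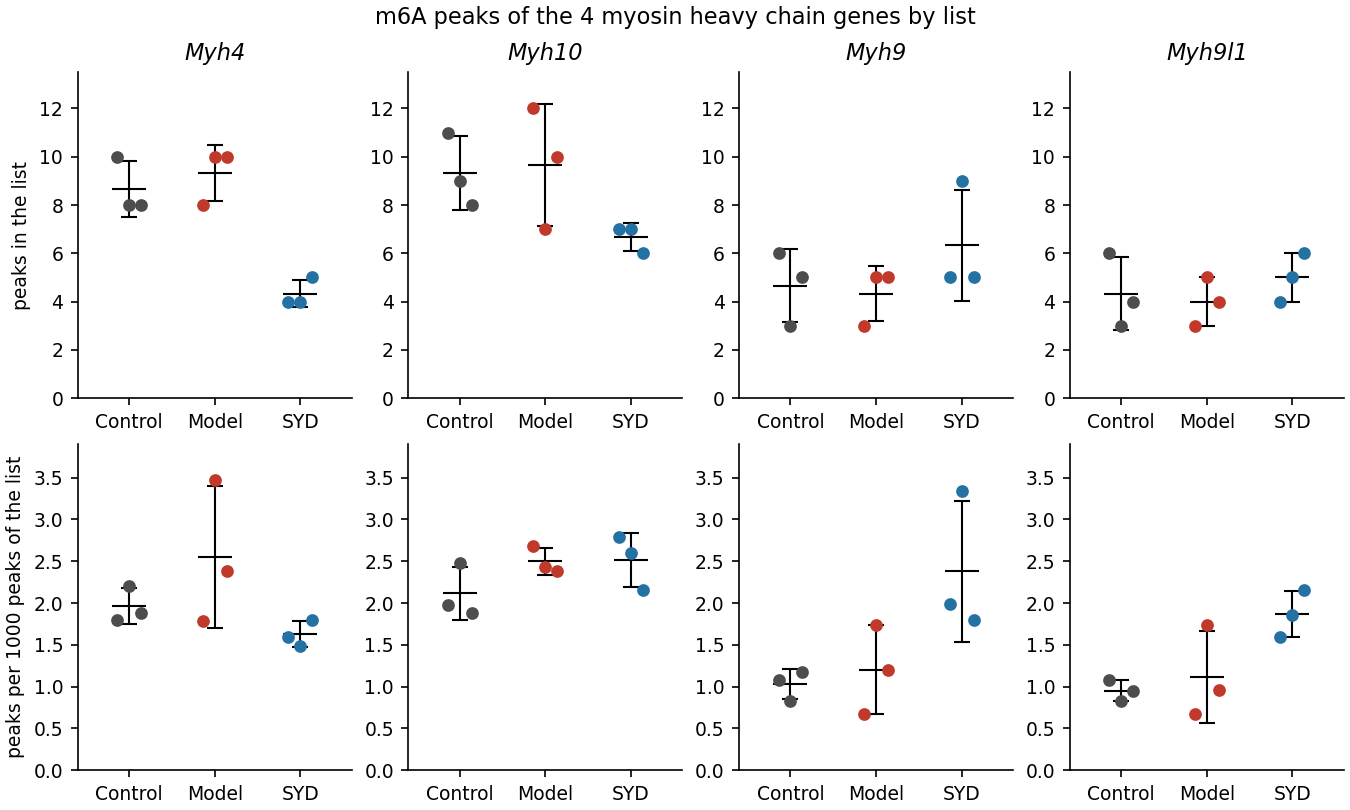
Number of m6A peaks of Myh4, Myh10, Myh9 and Myh9l1 in each list (top) and per 1000 peaks of the list (bottom). Points are lists, the horizontal mark is the mean and the bars are ± SD of 3 lists. The SYD lists hold 4 to 5 Myh4 peaks and the Control and Model lists 8 to 10.

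The peaks named Myh4 came from 3 transcripts that lay one after the other over 80046 bases of chromosome 10 (rn6). The first transcript held sites 1 to 4 at chr10:53720136-53735166, the second held sites 5 to 12 at chr10:53753918-53764610 and the third held sites 13 to 16 at chr10:53792978-53800181, with 18751 and 28367 bases between them. In the order of RefSeq genes on the newer rat assembly GRCr8, Myh4 stands between Myh1 and Myh8, after Myh3 and Myh2. Whether the first 2 stretches belong to Myh4 or to a neighbour of the cluster was not tested, because no rn6 annotation was used here. Lengths of sites recurred between the stretches: a site of 243 bases followed by one of 390 bases stood in the second (sites 5 and 6) and again in the third (sites 13 and 14), and a site of 126 bases in the first and the third (sites 4 and 15).

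The second stretch held 33 of the 67 Myh4 peaks, of which 10 were from Control, 16 from Model and 7 from SYD lists. The first held 10, 9 and 5 in the same order and the third 6, 3 and 1. By list, the first stretch had 3, 3 and 4 peaks in Control, 3, 3 and 3 in Model and 2, 1 and 2 in SYD. The second had 4, 4 and 2, then 5, 6 and 5, then 2, 2 and 3, where Control and SYD overlapped. The third had 3, 1 and 2, then 0, 1 and 2, then 0, 1 and 0, where SYD overlapped both groups. Sites 3, 6 and 10 were held by all 9 lists and site 2 by 8, with SYD replicate 2 the exception. The remaining 12 sites were held by 1 to 6 lists.

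**Figure D2:**
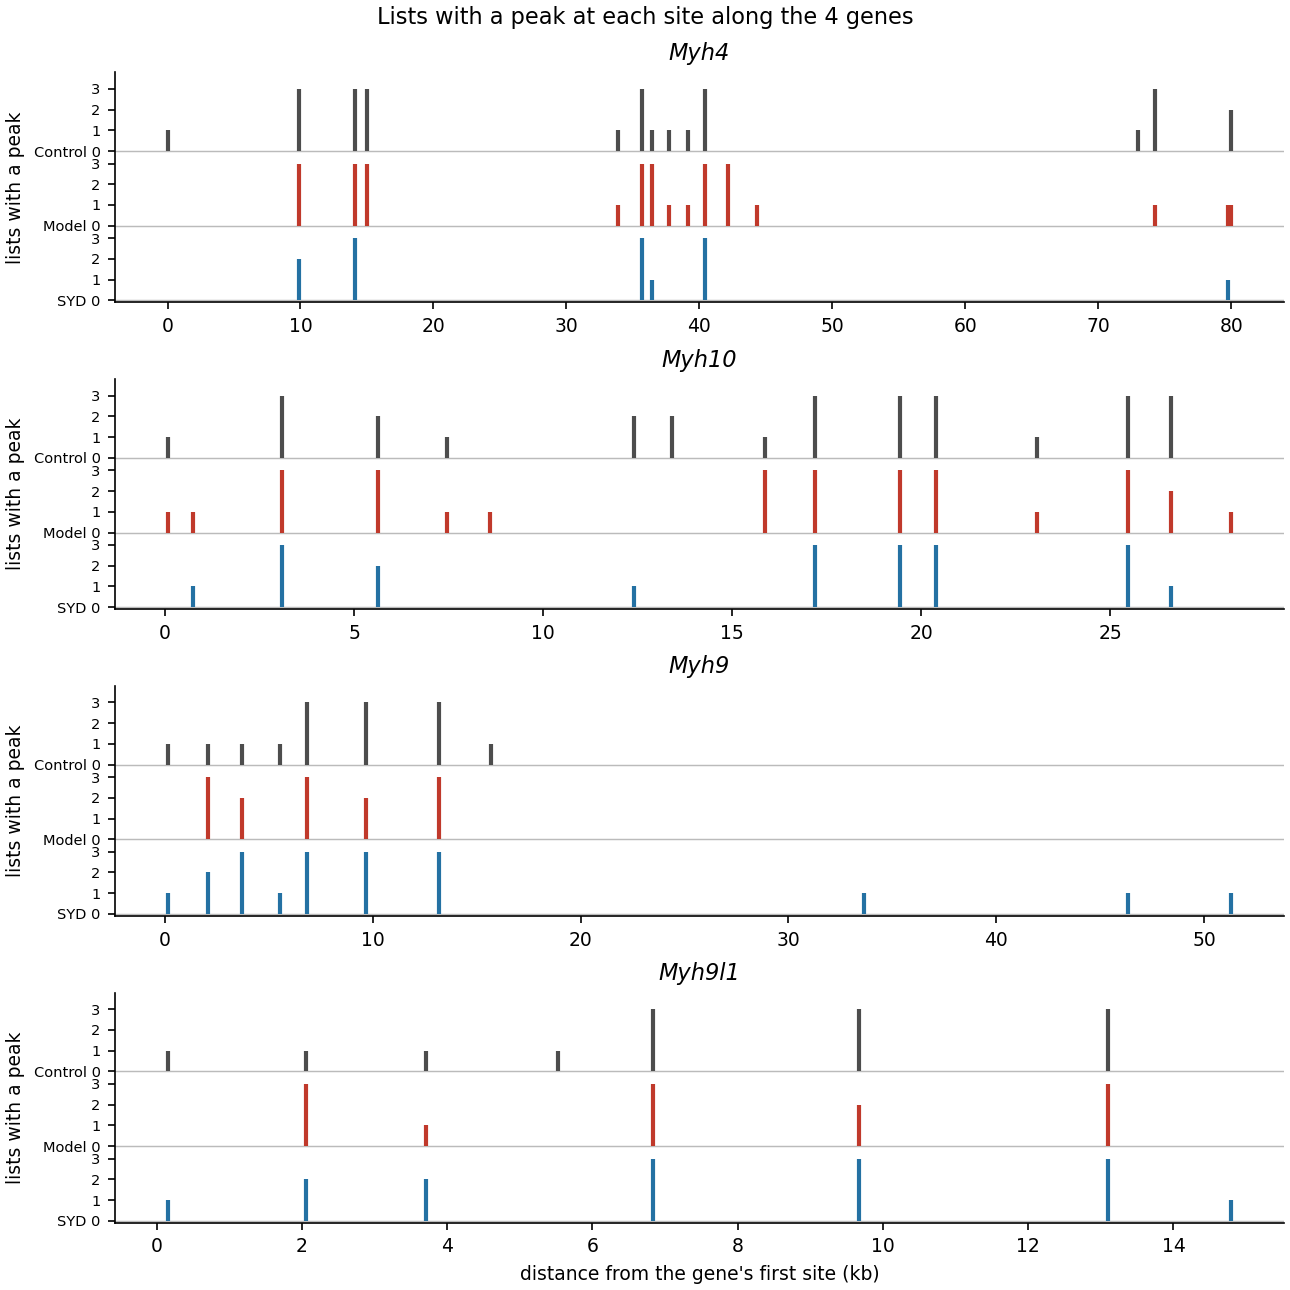
Number of lists with a peak at each site of Myh4, Myh10, Myh9 and Myh9l1, by distance from the gene's first site in kb, with a lane of 0 to 3 lists for each group. Myh4 sites fall in 3 stretches, and the SYD lane lacks several bars that the Control or Model lane has.

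A site was counted as separating 2 groups when all 3 lists of one and none of the other held it, for which Fisher's exact test gives p = 0.10 (two-sided) at any single site, the smallest possible here. Between Control and Model 26 myosin sites had a peak in at least 3 of the 6 lists. Of these, 1 was held by Model and not by Control, beside 0.367% of all sites tested in that direction, and 0 were held by Control and not by Model, beside 1.69%. Of 25 myosin sites tested between Model and SYD, 3 were held by Model and not by SYD (background 4.80%) and 0 by SYD and not by Model (0.290%). Of 24 tested between Control and SYD, 2 were held by Control and not by SYD (background 8.10%) and 0 in the other direction (0.263%). With at least 2 lists of one group against none of the other, over sites with a peak in at least 2 of the 6 lists, 2 of 35 myosin sites were held by Control and not Model (background 7.87%) and 1 by Model and not Control (3.46%). Of 27 such sites, 3 were held by Model and not SYD (16.9%) and 0 by SYD and not Model (2.24%), and of 30, 4 were held by Control and not SYD (22.0%) and 0 by SYD and not Control (1.50%). Both comparisons with SYD share its lists, and with so few sites nothing particular to the myosin genes was read from these counts.

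The only myosin site that separated Control from Model was Myh4 site 11, 105 bases at chr10:53762210-53762314. Its score was 25.8, 60.4 and 48.1 and its fold 5.75, 8.99 and 8.97 in Model replicates 1, 2 and 3, while no Control and no SYD list held it. Within their own lists these scores stood at the percentiles 14.5, 59.2 and 47.1. With a score of at least 50 or with lists of equal length, Myh4 site 11 no longer separated Model from Control or from SYD.

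Myh4 site 4, 126 bases at chr10:53735041-53735166, was held by all Control and all Model lists and by no SYD list. Its score was 240, 71.3 and 107 in Control and 68.1, 73.5 and 185 in Model, and its fold 18.5, 13.8 and 10.2 in Control and 14.4, 11.8 and 25.0 in Model. Control and Model overlapped in both measures. Myh4 site 14, 390 bases at chr10:53794207-53794596, was held by the 3 Control lists with scores of 128, 58.0 and 56.5 and by Model replicate 3 with 61.5, and by no SYD list. Site 16 had peaks in Control replicates 1 and 3 and in Model replicate 2, with folds of 11.8, 44.5 and 23.2, and none in SYD.

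Myh8, the perinatal gene next in the cluster, had 5 peaks at 2 sites. Its site 2 was held by the 3 Model lists, by Control replicate 3 and by no SYD list, with scores of 21.9 to 76.0. Of all sites tested, 4.80% were held by Model and not SYD. Its other site had 243 bases, the length that stood in both Myh4 stretches. No other name of the list of 9 other myosin heavy chains stood at a peak. Whether peaks named Myh4 lie in one of those genes was not tested.

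The highest Myh4 scores were at site 3 (204 bases, chr10:53734120-53734323) and at site 6 (390 bases, chr10:53755613-53756002). The score of site 3 was 944, 177 and 730 in Control, 227, 173 and 336 in Model and 50.4, 51.2 and 52.1 in SYD, so that the SYD lists were the 3 lowest. In percentiles of their own list the same peaks stood at 96.6, 84.6 and 96.3 in Control, 86.3, 85.2 and 92.0 in Model and 59.4, 58.3 and 58.6 in SYD, with no overlap between SYD and the rest. How often SYD lay below the rest at sites of other genes was not counted. Site 6 had scores of 991, 563 and 425 in Control, 619, 83.2 and 272 in Model and 135, 44.0 and 168 in SYD, where Model and SYD overlapped.

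**Figure D3:**
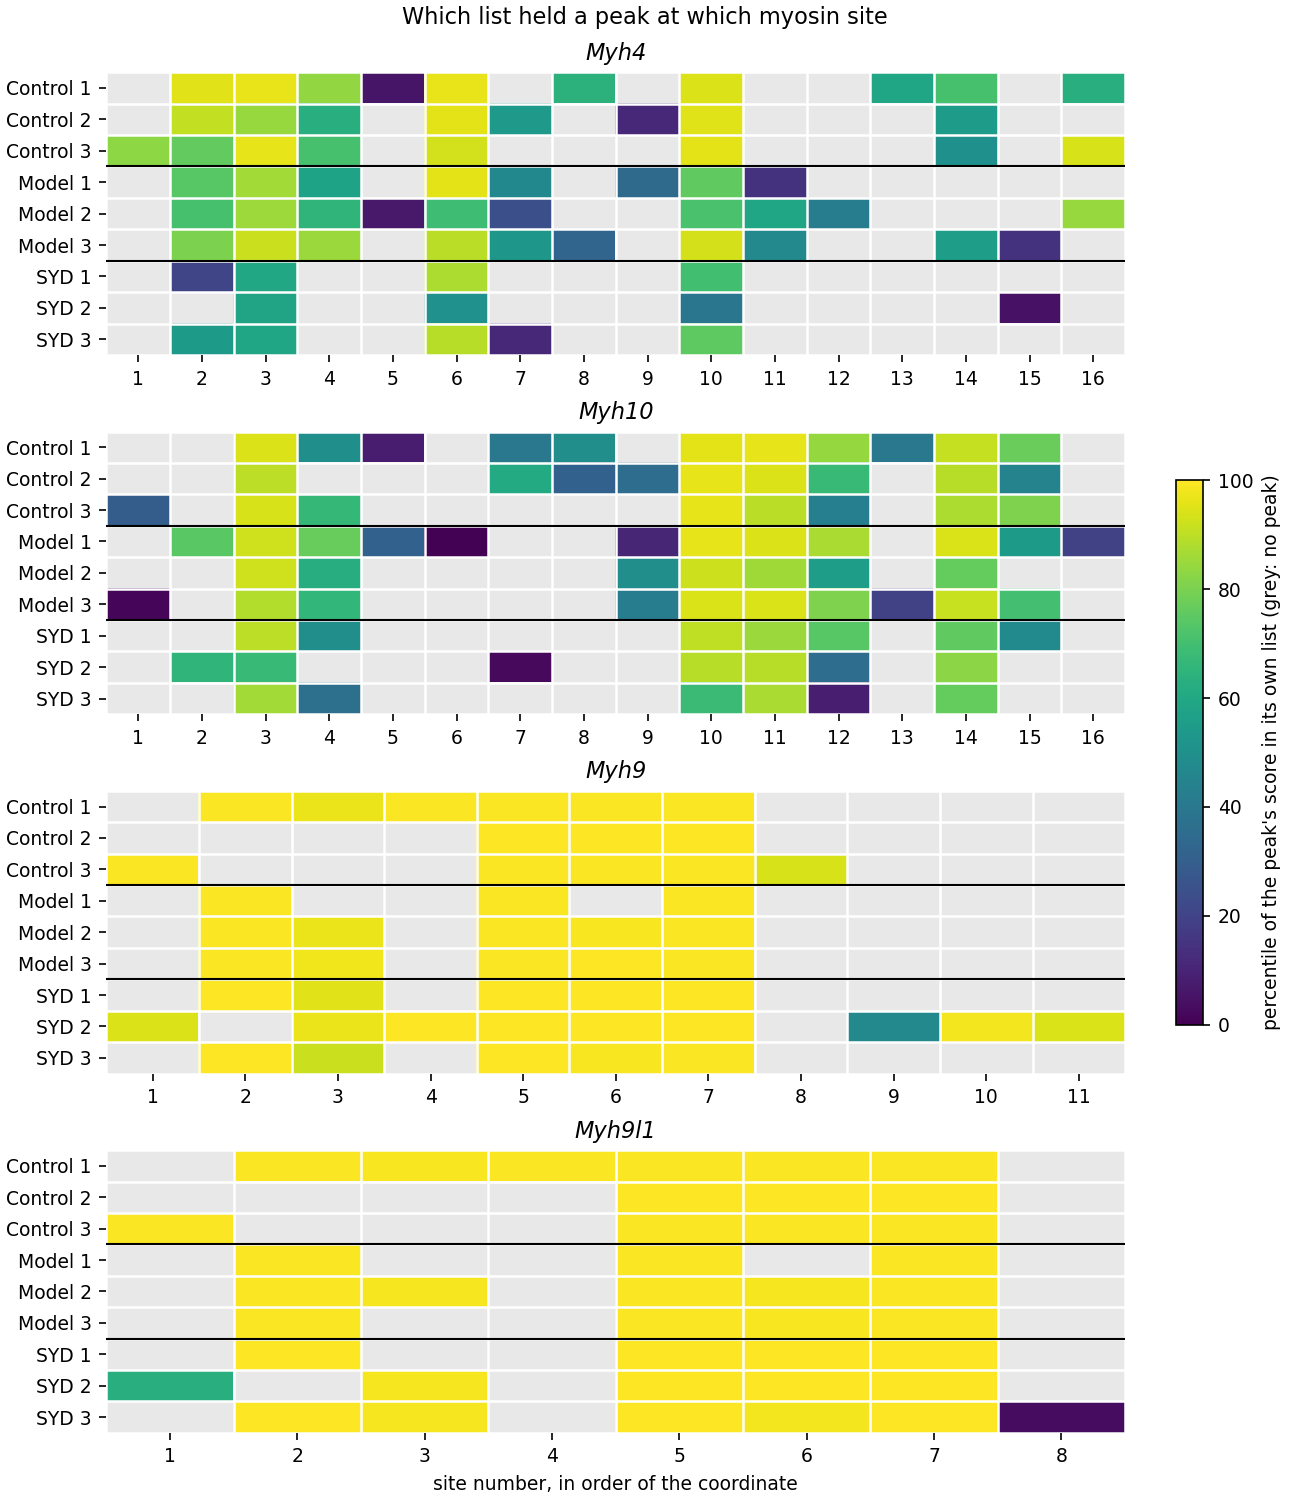
Presence and strength of the peaks of Myh4, Myh10, Myh9 and Myh9l1, with lists in rows and sites in columns. Colour gives the percentile of the score within the list and grey marks a site with no peak. Most Myh9 and Myh9l1 peaks stand near the top of the scale (median percentile 99.6), with the low exceptions in SYD lists, while Myh4 and Myh10 peaks range from the bottom to the top.

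Myh10, the non-muscle IIB gene, had 16 sites over 28272 bases, all on 1 transcript at chr10:55376211-55404482. Its sites 3, 10, 11, 12 and 14 were held by all 9 lists, which is 31.2% of its sites, and site 4 by 7. The highest scores were at site 11 (213 bases), with 848, 466 and 293 in Control, 493, 178 and 425 in Model and 115, 170 and 149 in SYD, and at site 10 (249 bases), with 837, 614 and 763, then 641, 301 and 432, then 157, 170 and 67.8. The SYD lists were the 3 lowest at both sites, though at site 11 Model replicate 2 (178) stood close to SYD replicate 2 (170). In percentiles of their list site 10 stood at 96.0 to 96.4 in Control, 92.4 to 96.1 in Model and 68.1 to 90.6 in SYD, where SYD lay below the rest. Site 11 stood at 89.5 to 96.1 in Control, 85.6 to 94.7 in Model and 84.9 to 89.3 in SYD, where Model and SYD overlapped. Here too, the share of all sites with SYD lowest was not counted.

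Myh10 sites 1, 2, 5, 6, 7, 8, 13 and 16 were held by 1 to 3 lists, with scores from 20.1 at site 6 to 118 at site 2, at percentiles of 0.458 to 74.3 in their lists. Site 9, 105 bases at chr10:55392030-55392134, was the only Myh10 site that separated 2 groups: it was held by the 3 Model lists with folds of 5.65, 6.13 and 9.70, by Control replicate 2 with 6.81, and by no SYD list. Its scores of 24.1 to 48.1 were each below the median score of their own list, and with a score of at least 50 or with lists of equal length it no longer separated Model from SYD. Site 15 was held by 3 Control, 2 Model and 1 SYD list. Sites 7 and 8 were held by Control replicates 1 and 2 and by no Model list, and site 7 also by SYD replicate 2.

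Myh9, the non-muscle IIA gene, had higher scores than Myh4 and Myh10. Of its 46 peaks, 32 had a score of 3100 or above, a value at which the scores of the lists piled up, as did 31 of the 40 Myh9l1 peaks, against 250 of all 32961 peaks and 0 for Myh4 and Myh10. The median percentile of the score within the list was 99.6 for both Myh9 and Myh9l1, 76.3 for Myh10 and 69.9 for Myh4. Most of these scores were tied at 3100, so they could not order the groups. Fold enrichment did not set Myh9 apart at sites held by all lists. Relative to the list's median over such sites, the group means of the log2 fold were -0.04 to 0.51 at Myh9 sites 5 and 7. They were -0.20 to 1.36 over the Myh4 sites held by all lists and -0.69 to 0.60 over those of Myh10.

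Myh9 and Myh9l1 could not be treated as separate measurements. The 2 genes lie on chromosome 7, with Myh9 at chr7:118741110-118792625 and Myh9l1 at chr7:118992356-119007197. Their sites 1 to 7 had the same lengths in the same order (317, 209, 129, 213, 249, 213 and 207 bases). In 6 of these 7 pairs the partners stood exactly 251246 bases apart, and in the other pair 251153 bases, 93 fewer. In the RefSeq table of GRCr8, Myh9l1 is a synonym of Myh9 and not a gene of its own. Reads of near-identical copies can be shared or split between them by the aligner, and which copy the peaks came from is uncertain.

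The 2 names also behaved as 1 across the lists. In 60 of 63 combinations of a pair and a list (95.2%) both sites were called or both were absent. The exceptions were 3 combinations with a peak in Myh9 alone, at site 3 in Model replicate 3 and SYD replicate 1 and at site 4 in SYD replicate 2. Where both were called, in 39 combinations, the fold at Myh9 was 0.672 to 1.79 times that at Myh9l1, with a median of 1.07, and 35 of the 39 were within 1.5 times. The largest gap was at site 2 of Model replicate 3, with folds of 25.0 and 14. Counted once, Myh9 and Myh9l1 had 6, 3 and 5 peaks in Control, 3, 5 and 5 in Model and 5, 9 and 6 in SYD. The groups overlapped, and the difference between SYD and Model was 2.33 peaks with p = 0.300 (two-sided exact permutation test).

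**Figure D4:**
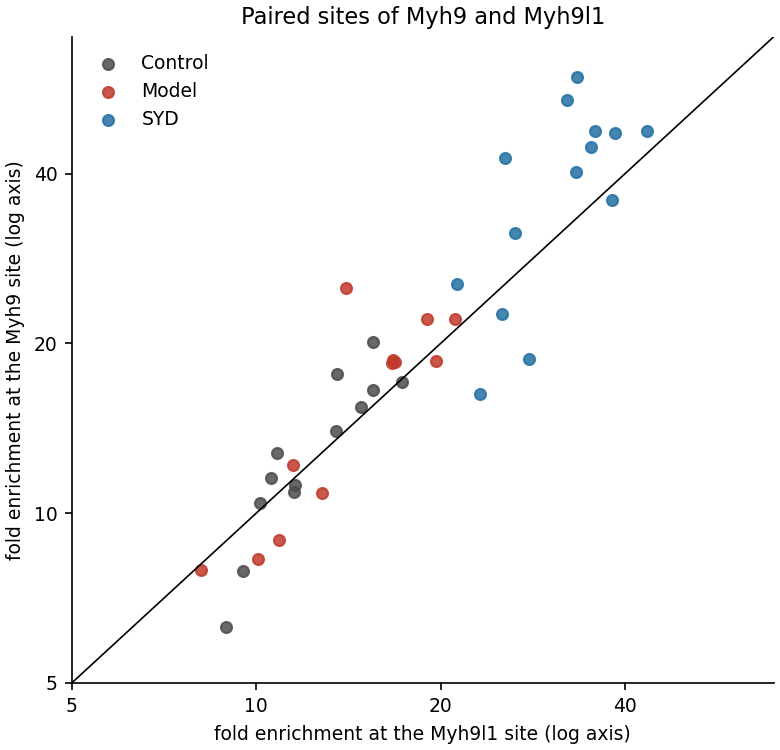
Fold enrichment at each Myh9 site against its Myh9l1 partner, both on log axes, for the 39 combinations of pair and list with a peak at both. The line marks equal folds. Points lie along it between 6.28 and 59.3 on the Myh9 axis, with SYD at the upper end.

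A high score at Myh9 did not go with presence in every list. Site 2 had a score of 3100 in each of the 6 lists that held it, namely Control replicate 1, the 3 Model lists and SYD replicates 1 and 3. Site 1 was held by Control replicate 3 and SYD replicate 2, and no list held both sites 1 and 2. Site 6 was held by all lists except Model replicate 1. The authors' numbers of the peaks ran without a gap through Myh9, Myh9l1, Myh4 and Myh10 in all 9 lists, so no numbered peak between these sites had been left out. A peak dropped before the numbers were given would not show in them. Whether a neighbouring peak had been joined to another by the caller was not tested.

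Beyond the shared pairs, Myh9 had 4 sites without a Myh9l1 partner. Control replicate 3 alone held site 8 (161 bases, score 451). SYD replicate 2 alone held sites 9, 10 and 11 at chr7:118774717-118774810, chr7:118787360-118787516 and chr7:118792154-118792625, with scores of 41.4, 832 and 294 and folds of 36.4, 67.4 and 15.0. They were 3 of the 9 Myh9 peaks of SYD replicate 2, and the other SYD lists held 5 Myh9 peaks each. Myh9l1 had 1 site without a partner, site 8 in SYD replicate 3 with a score of 20.7.

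Site lengths were also shared between Myh9 and Myh10, the IIA and IIB paralogs. Read in order of falling coordinate, 7 of the 11 Myh9 sites had the length of a Myh10 site in order of rising coordinate: 161, 207, 213, 249, 213, 129 and 209 bases. With both genes read in order of rising coordinate, 3 sites matched. For comparison, 4.53% of all sites had the length of some Myh10 site, a share that takes no account of order. Myh9 shared no site length with any Myh4 stretch. Borders of called peaks recurred exactly between lists, in 215 of the 219 myosin peaks at sites held by 2 or more lists and in 85.4% of such peaks of all genes, and what set these borders is not given in the sources used here.

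Sites of the IIA and IIB genes were set side by side by length and order alone. Whether the matched sites correspond in the 2 transcripts was not tested. The sites of 207 bases (Myh9 site 7, Myh10 site 3) and of 249 bases (Myh9 site 5, Myh10 site 10) were held by all 9 lists in both genes. The site of 209 bases was held by 6 lists in Myh9 (site 2) and 9 in Myh10 (site 14). The first site of 213 bases in that order was held by 8 lists in Myh9 (site 6) and 1 in Myh10 (site 6), and the next by 2 in Myh9 (site 4) and 9 in Myh10 (site 11). The sites of 129 bases were held by 6 and 2 lists, and those of 161 bases by 1 and 2.

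Fold enrichment was compared at the 12 myosin sites that all 9 lists held, 3 of Myh4, 5 of Myh10, 2 of Myh9 and 2 of Myh9l1. The log2 fold was taken relative to the list's median over the 917 sites held by all lists, since that median fold was 12.5 to 16.2 in Control, 12.7 to 17.8 in Model and 26.7 to 40.5 in SYD. By limma with Benjamini-Hochberg adjustment over 917 sites, 0 of the 12 differed between any 2 groups, and 0% of all 917 sites were called in any contrast. Before adjustment 2.40%, 7.31% and 8.51% of all sites had a p under 0.05 for Model against Control, SYD against Model and SYD against Control, and 0, 1 and 1 of the 12 myosin sites did. The median log2 difference over the 12 sites was -0.09, -0.07 and -0.15, beside -0.00, 0.01 and 0.02 over all 917.

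The myosin site under that threshold was Myh4 site 3 in both contrasts with SYD. Its fold was 48.9, 20.2 and 44.9 in Control, 34.3, 26.2 and 42.5 in Model and 50.4, 31.5 and 51.6 in SYD, which overlapped. Relative to the list's median the log2 fold was 1.97, 0.64 and 1.47 in Control, 0.95, 1.04 and 1.30 in Model and 0.37, 0.24 and 0.35 in SYD, with SYD below every other list. The log2 difference was -1.04 (SE 0.29) for SYD against Control, with adjusted p = 0.419, and -0.78 (SE 0.29) for SYD against Model, with adjusted p = 0.648, both from limma. Without centring the same differences were 0.30 and 0.37, so the direction depended on the scale.

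At the other 11 shared sites, the log2 differences for SYD against Control ranged from -0.58 (SE 0.33) at Myh10 site 3 to 0.24 (SE 0.27) at Myh9 site 7, with -0.44 (SE 0.24) at Myh10 site 10. For SYD against Model the log2 differences ranged from -0.43 (SE 0.33) at Myh10 site 3 to 0.24 (SE 0.36) at Myh4 site 6, and for Model against Control from -0.35 (SE 0.24) at Myh10 site 10 to 0.24 at Myh10 site 12 and Myh9l1 site 7. The spread within a group differed between sites. At Myh4 site 6 the SD of the log2 fold relative to the median was 0.17 in Control, 0.64 in Model and 0.73 in SYD, and at Myh9l1 site 5 it was 0.16, 0.06 and 0.02 in the same order. A difference that misses the threshold with 3 lists a group does not show that the groups were alike.

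**Figure D5:**
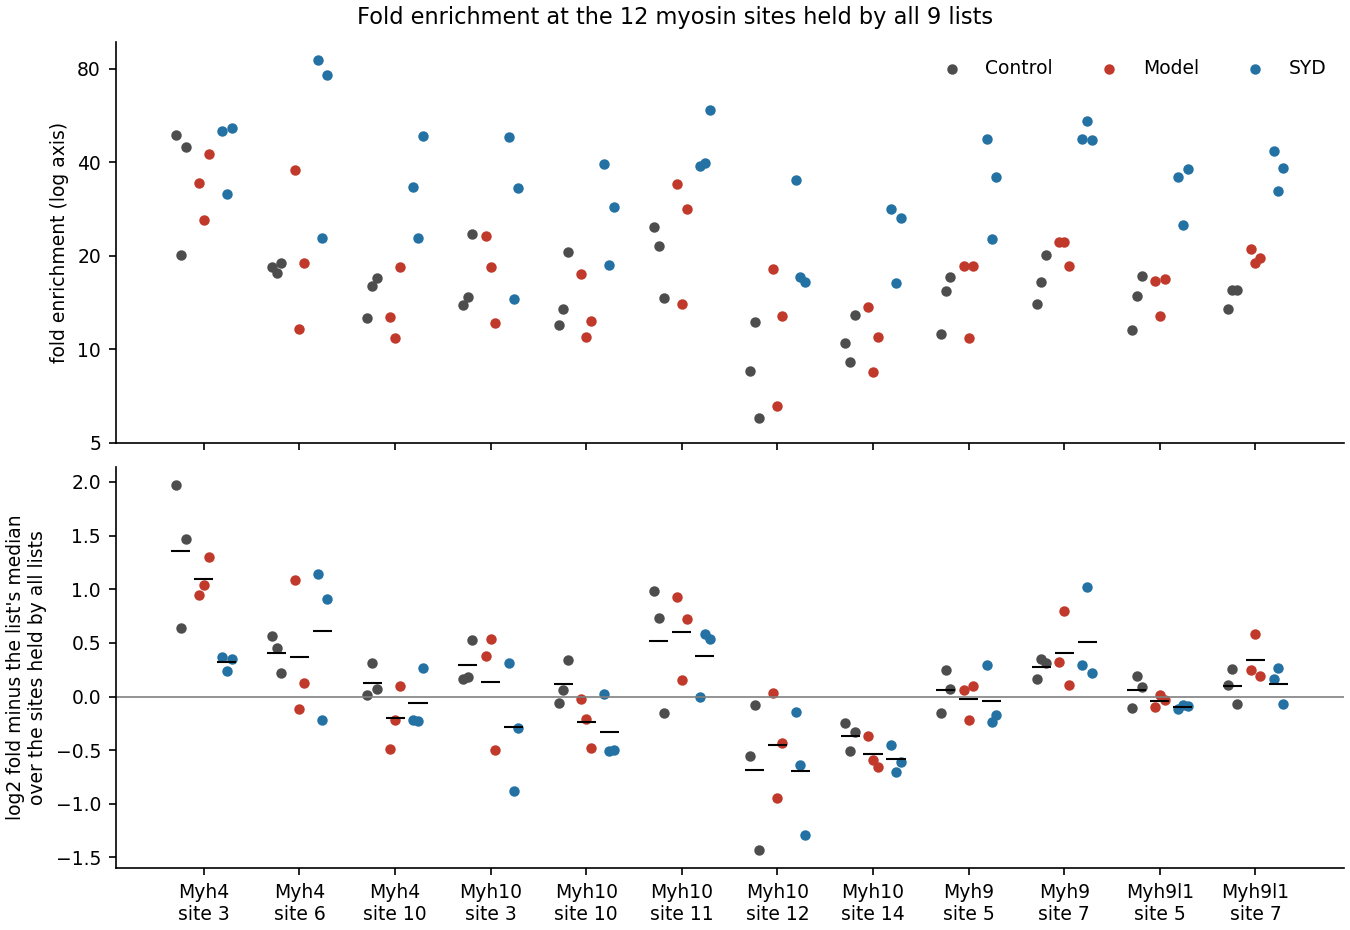
Fold enrichment (top, log axis) and log2 fold minus the list's median over the 917 shared sites (bottom) at the 12 myosin sites held by all 9 lists. Points are lists, and the short lines in the bottom panel are means of 3. On the centred scale the SYD points of Myh4 site 3, 0.24 to 0.37, lie under those of the other groups.

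At sites held by at least 2 lists of each group, values were had for 4 more myosin sites, and missing lists were left out of the fit. Myh9 site 6 had folds of 7.89, 10.4 and 10.9 in Control, 7.92 and 8.96 in Model replicates 2 and 3 and 59.3, 42.6 and 31.5 in SYD. Relative to the list's median over the shared sites its log2 fold was -0.66, -0.31 and -0.57 in Control, -0.68 and -0.95 in Model and 0.61, 0.68 and -0.37 in SYD. SYD replicate 3 lay within the Control range and the other SYD lists above it, and all SYD lists lay above the Model lists. With centring over the 1829 sites of this fit, the limma difference of SYD from Model was 1.06 (SE 0.31) on the log2 scale, with adjusted p = 0.516. At its partner, Myh9l1 site 6, it was 0.30 (SE 0.25), with adjusted p = 0.838 by limma.

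Genes whose peak strength most resembled that of each myosin gene were found from the highest score per list, as Pearson's r of log2(1 + score) over the 9 lists. For Myh4 they were Akap12, a scaffold of protein kinase A (r = 0.99), Incenp of the chromosomal passenger complex (0.98) and the actin regulator Enah (0.96). For Myh10 they were Anp32b, the membrane-cytoskeleton linker Ezr and the protein kinase A subunit Prkar2b (each 0.98). The likeness was not special to these genes, since 98 of 3088 genes had r above 0.9 with Myh4 and 153 with Myh10, and all points share the lists and their depth. The highest score of Myh9 was 3100 in every list and that of Myh9l1 3100 to 3184, so the genes nearest to them, Kdm4b, Gdf11 and Bnip2 for Myh9 and Abr, Marcks and Rabl6 for Myh9l1, were ranked on almost constant values.

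Among genes that work with myosin II, the light chains had a peak in 1 of 13 genes: Myl9, the regulatory light chain of smooth muscle and non-muscle myosin, in all 9 lists with scores of 82.1 to 341. Of 24 regulators of myosin, 11 had a peak. Cdc42bpb, a kinase of the MRCK family, was held by 9 lists, the exchange factors Arhgef1 and Arhgef12 by 8 and 7, and the kinase Pak1 by 7. Arhgef12 had a site in all Control and all Model lists and in no SYD list. Over all sites tested, 8.10% were held by Control and not SYD and 4.80% by Model and not SYD. Of 11 myosin chaperones, 2 had a peak, of which Unc45a was held by 5 lists and Hspb7 by 1.

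Of 27 genes of actin and the thin filament, 9 had a peak. Of these, 5 were held by all 9 lists, among them Tpm4, Tpm2, Tnnt2 and Lmod1, and Tpm4, a tropomyosin, had scores of 1543 to 3100. Of 24 genes of the thick filament and Z disc, 4 had a peak, with the crosslinker Actn4 and Obsl1 in 9 lists, Actn1 in 8 and Flnc in 4. No gene of these lists had a site that separated 2 groups, beside 0.263% to 8.10% of all sites tested, by direction.

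Of 24 unconventional myosins, motors outside class II, 8 had a peak. Myo18a, Myo10 and Myo6 were held by all 9 lists and Myo9b by 8. Myo18a had 10 sites and 59 peaks, the most of that list, with highest scores per list of 146 to 1056. Myo6, a motor that moves toward the pointed end of actin, and Myo9b each had a site held by all Model lists and by no SYD list. Over all sites tested, 4.80% were so held, and the number tested in this list was not counted. Of 28 muscle transcription factors, 14 had a peak, with Srf, Tead1 and Vgll3 in all 9 lists and Gata6 in 8. In no list of these partner genes did a site separate Control from Model, and in none did a site separate SYD from the other groups by being held in SYD. Those directions held 0.263% to 1.69% of all sites tested.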

How the data were processed

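Per the labels and the methods, the authors cleaned reads (cutadapt 1.9.3), mapped them to the rat genome (HISAT2 2.0.4, build rn6), ran MACS on each sample and kept the peaks on mRNA. HTSeq 0.9.1 and edgeR 3.16.5 stand in the submitters' processing notes with no role, and no read counts were used here. Each deposited list gives a score, which equals the deposited −log10 p-value times 10 in 100% of lines, the authors' ratio of IP over input (fold enrichment, scaled within the replicate) and an FDR in percent, deposited as 100 for every peak and not used. Other deposited values are the peak's start, end and length.

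Peaks were merged into sites over all lists. Peaks per gene were tested by exact permutation (1680 assignments over 3 groups, 20 over 2), for genes with a peak in at least 3 lists. Log2 folds at sites held by all lists were tested with limma 3.58.1 (R 4.3.3) and Benjamini-Hochberg adjustment. Both tests were run on simulated data. Tables and exact tests were made in Python 3.11.15 (scipy 1.17.1, pandas 2.3.3, numpy 2.4.6), figures in matplotlib 3.10.9. The genes named are the 7 members, genes of the lists with a separating site or with peaks in most lists (up to 4 a list; 1 such gene is not reported here), and the 3 genes nearest to each member. The members, lists and tests were chosen with earlier results of these data known. Lists shared 32.5% to 50.1% of their sites pairwise, so none was a copy of another. Depth is unknown. Alternatives were a score minimum of 50, lists of equal length (2508 peaks), bases covered, an overlap of at least 50%, other centrings and leaving out each library.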

Additional observations from a re-analysis of the deposited data

How the results depend on the processing

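No member gene or site passed its adjusted threshold in any setting with centred folds. Without centring, 10 of the 12 shared sites were called higher in SYD than in Model, beside 826 called of all 917 shared sites. Against Control, 10 of the 12 were called higher in SYD, beside 880 called of all 917. Myh4 site 3 then had log2 differences of 0.37 and 0.30 instead of -0.78 and -1.04. By the construction of this setting the higher folds of the SYD lists enter the difference. Same-numbered libraries of different groups had r of -0.05 to 0.26 over 917 sites, so the numbers were not taken as pairs. With the replicate number as a block, the exact p over 3 groups for Myh4 was 0.111. Myh4 site 3 kept its differences (-0.78, adjusted p = 0.530 by limma, and -1.04, adjusted p = 0.432). The difference of SYD from Model in Myh4 peaks was -5.0 with blocked exact permutation p = 0.250, the smallest that this blocked test can give. No adjusted call was changed by the block. For Model against Control the sign of the difference in peaks turned for Myh4 with bases covered (-115 bases), a score of at least 50 (-1.33) and lists of equal length (-0.333). On peaks per 1000, the difference was 0.171 for Myh9 and 0.170 for Myh9l1 between Model and Control, and for Myh10 0.0162 between SYD and Model and 0.401 between SYD and Control. The cause was not tested. Leaving out each library gave Model minus Control differences of -1.17 to 0.333 for Myh9, -1.0 to 0.50 for Myh9l1 and -0.833 to 1.67 for Myh10, and SYD minus Control of 0 to 1.5 for Myh9l1. It gave 1 to 3 myosin sites that separated Control and Model, beside 84 to 247 sites over all genes. The number was 3 without any 1 Control list (beside 228 to 247) and 2 without Model replicate 3 (beside 205). For Model and SYD it gave 3 to 4, beside 158 to 551, and for Control and SYD 2 to 3, beside 286 to 690. With at least 2 lists against none, 3 myosin sites separated Control and Model, beside 632 over all genes. The number was 0 with a score of at least 50 (beside 44), with lists of equal length (42) or with genes in place of sites (48). For Model and SYD the myosin sites numbered 3 with a score of at least 50, beside 116 over all genes. Of these 3, 1 was among the original 3. With lists of equal length 1 separated Model and SYD, beside 65, and with genes 0, beside 101. For Control and SYD the number was 4 with at least 2 lists against none, beside 1143, and 0 with genes, beside 179.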
